A study of Homo sapiens with 6 samples.

Results

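The genes described here encode the subunits of oxidative phosphorylation, the machinery of the inner mitochondrial membrane, as they are listed in an exon annotation of U-87 MG cells. They were chosen by name alone, as every gene whose symbol follows the naming pattern of complex I (NDUF), complex II (SDH), complex III (UQCR and CYC1), complex IV (COX) or complex V (ATP5) subunits. Of 13721 listed gene names, 73 matched. U-87 MG is an established human glioma line. In 6 libraries of poly(A)-selected RNA, 3 cultures labelled EPZ015666 had received this inhibitor of the arginine methyltransferase PRMT5 at 10 uM for 72 h, and 3 cultures labelled DMSO had received the vehicle (10 ul in 10 ml of medium) for 72 h. The line is a single tumour-derived line in culture, and no genotype is given for either group. The annotation was made once for both groups, has 0 columns of values per library and gives only exon positions in hg19. No level, depth or replicate error can therefore be given, and EPZ015666 was not compared with DMSO. The text below describes gene structures.

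Complexes I and II feed electrons from NADH and succinate to ubiquinone, complex III passes them to cytochrome c, and complex IV passes them to oxygen. Complexes I, III and IV pump protons, and complex V uses the proton gradient to make ATP. Core subunits carry the redox centres or the catalytic and rotary parts, and accessory subunits surround them. A few further subunits are encoded in human mitochondrial DNA, which has no introns and is not covered by the naming pattern. PRMT5 methylates Sm proteins of the splicing machinery, and the series is titled for intron detention, in which a polyadenylated RNA stays in the nucleus with an intron unspliced.

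Complex I had 33 members, complex II 4, complex III 9, complex IV 9 and complex V 15. NDUFA4 was counted in complex IV, where its protein is now placed. The pattern also matched 3 genes that do not encode subunits of these complexes. COX7A2L acts in the pairing of complexes III and IV, ATP5S is a coupling factor-like protein, and ATP5SL is named for its likeness to ATP5S. They were kept in all counts over the 73 and are given apart in the counts by complex. A fixed list of subunits, carriers and tissue forms held further symbols under which no row was analysed here, among them NDUFS3, NDUFV2 and NDUFA13 of complex I and 8 names of complex IV. Those 8 included the lung form COX4I2, the heart and muscle forms COX6A2 and COX7A1, and the testis forms COX6B2 and COX8C. They also included COX6A1 and COX8A, which are widely used forms. Of the cell markers on the same fixed list, 3 of 3 glioma cell names (VIM, CD44, NES) and 2 of 5 astroglial names (S100B, SLC1A3) were listed. GFAP, AQP4 and ALDH1L1 were not matched, and a listing says nothing of level.

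Subunit genes were listed as short chains. The 69 members with at least 1 intron had a median of 4 introns, against 8 over the 12462 listed genes with introns, where the isoform with most introns stood for each gene. Their median span from first to last exon was 9985 bases, against 29128 bases over the same 12462 genes. The 318 distinct introns of the members had a median of 1545 bases and a range of 73 to 42691 bases, against a median of 1471 bases over 138855 introns of all genes. By complex, the median intron was 1932 bases in complex I, 3034 bases in complex II, 641 bases in complex III, 2270 bases in complex IV and 822 bases in complex V, so complexes III and V were below the median of all genes. Genes of the cytosolic ribosome, the other large set of short housekeeping genes, had the same median of 4 introns with a median intron of 493 bases. Mitochondrial ribosomal protein genes had a median of 5 introns and a median intron of 1692 bases.

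**Figure D1:**
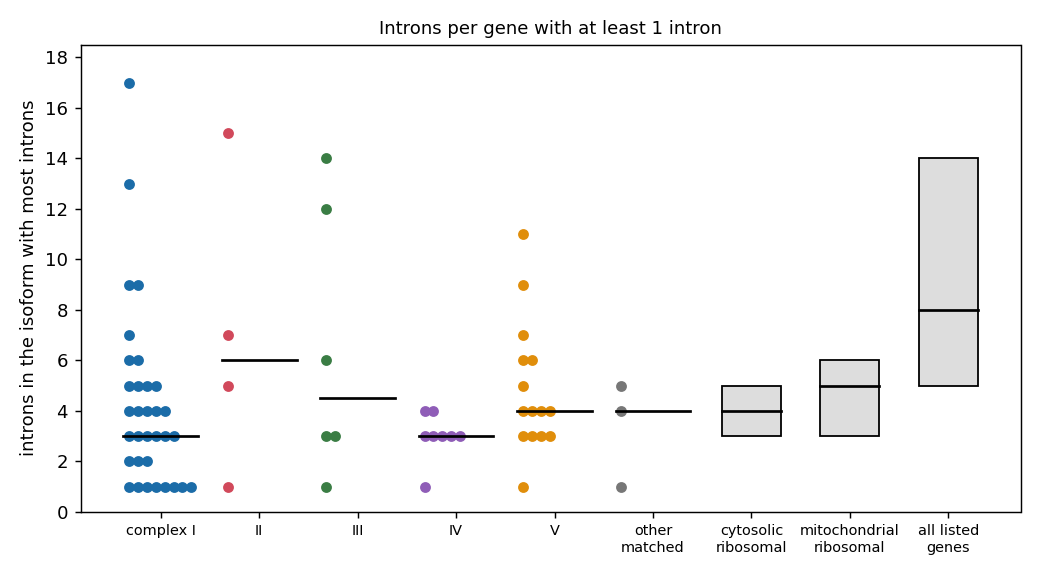
Number of introns in the isoform with most introns, for each gene with at least 1 intron. Points are the members by complex, with the complex median as a bar, and boxes give the median and quartiles of cytosolic ribosomal, mitochondrial ribosomal and all listed genes, whose median of 8 lies above the median of every complex.

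When all complexes were pooled, core genes were listed with more introns than accessory genes, at the same median density. The 18 core members with introns had a median of 6 introns, and the 48 accessory members had a median of 3. The difference was not seen in every complex. In complex I the medians were 9 in core and 3 in accessory members, and in complex V they were 4 in both. In complex III the accessory genes UQCRC2 and UQCRC1 had 14 and 12 introns, and the core gene CYC1 had 6. The coding sequence of the principal GENCODE transcript had a median of 822 bases in core members and 348 bases in accessory members. Per kilobase of coding sequence, the principal transcripts had a median of 8.33 introns in both classes and 6.62 over all listed genes. Within complex I this density was 9.52 in the 5 core and 7.13 in the 28 accessory members. Within complex V it was 9.18 in the 8 core and 10.35 in the 7 accessory members. Over the 73 members, coding length and principal intron number had a Spearman rho of 0.755, as a description across genes that are not independent. Intron length ran the other way, with a median of 894 bases in core members and 2157 bases in accessory members. Of the 12 member introns under 100 bases, 11 were in core genes.

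In complex I, the core subunits that hold the flavin and the iron-sulphur chain had the longest chains. NDUFS1, the largest iron-sulphur subunit, had 17 introns, the most of any member. NDUFV1, which binds NADH and the flavin, had 9, and NDUFS7 and NDUFS8, which carry the last clusters before the quinone, had 6 each. The 28 accessory members had a median of 3 introns and a range of 1 to 9. NDUFA10 was at the top of that range. The accessory genes NDUFA2, NDUFA6, NDUFB1, NDUFB4, NDUFB7, NDUFB11, NDUFC2 and NDUFS5 had 1 intron each. NDUFS4, whose loss is a known cause of Leigh syndrome, spanned 122703 bases on chromosome 5 with 5 introns, while NDUFA2 spanned 2384 bases. NDUFS4 also held the longest and the second longest intron of all members, of 42691 and 41337 bases, and NDUFA10 held the next, of 28887 bases. The shortest introns were 73 bases in NDUFV1, 76 bases in NDUFS8 and 86 bases in CYC1.

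Complex II, succinate dehydrogenase, is the one complex encoded wholly in the nucleus. SDHA, the flavoprotein, had 15 introns, SDHB, the iron-sulphur subunit, had 7, and the membrane anchors SDHC and SDHD had 5 and 1. The spans ran from 8970 bases in SDHD to 50356 bases in SDHC. In complex III, UQCRC2 and UQCRC1 had 14 and 12 introns. Their proteins resemble a processing peptidase and carry no redox centre, so they are counted here as accessory although they are often called core proteins. The Rieske protein gene UQCRFS1 had none, and CYC1, the cytochrome c1 gene, had 6. UQCRQ had 1 intron. The longest span was that of UQCRC2, 30059 bases, and the shortest was that of UQCR10, 208 bases. Complex IV members, which surround the mitochondrially encoded catalytic core, had 4 introns at most, in COX5A and COX7A2, and 1 in COX7C. The longest span in complex IV was 18363 bases in COX5A. In complex V, the catalytic subunit genes ATP5A1 and ATP5B had 11 and 9 introns, the central stalk genes ATP5C1 and ATP5E had 7 and 1, and ATP5J had the longest span, 20731 bases. ATP5G1 had the shortest, 2548 bases.

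Of the paralogue sets, ATP5G1, ATP5G2 and ATP5G3 encode one and the same mature ring subunit c behind different import sequences. They had 3, 4 and 4 introns over spans of 2548, 11155 and 5405 bases. COX7A2 and COX7A2L had 4 and 1. COX4I1 and COX6B1 had 3 each, and their tissue-restricted partners COX4I2 and COX6B2 are among the names not matched.

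Members without introns were 4 of 73 (5.48%), and 9.18% of all listed genes had none. They were UQCR10 (208 bases), UQCR11 (1856 bases), the Rieske iron-sulphur protein gene UQCRFS1 (325 bases) and COX7B (129 bases). All of these have 1 or 2 introns in the principal GENCODE transcript. Without listed splice sites none could be matched to it, so whether each row lies within its gene was not tested. The UQCR11 row is at chr19:1576678-1578533 in hg19. The RefSeq window around the UQCR11 start is at chr19:1605433-1605712 in GRCh38, and positions were not converted between builds. The 13 members listed with 1 intron were 18.8% of the 69, and 4.76% of all genes with introns were listed so.

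Each listed gene ran from 1 first exon donor, and isoforms of a gene differed toward the 3′ end. No member and no other listed gene had an exon of one isoform skipped in another, and no gene had more than 1 first exon donor, so alternative internal exons and alternative first exons cannot be counted in this annotation. Of the members, 51 had 1 distinct isoform, 16 had 2 and 6 had 3 or more. A choice among 2 or more final exons was listed for 8 of 69 members (11.6%), and for 22.5% of all listed genes with introns. They were NDUFA10, NDUFB2, NDUFB3, NDUFC1, NDUFV3, SDHB, SDHD and COX7A2L, so 5 were of complex I and 2 of complex II, and none of the members of complexes III, IV and V had one. The number of introns runs with this feature over all genes. Among genes with 1 or 2 introns it was listed for 3 of 16 members and 71 of 1145 genes, and among genes with 3 to 5 introns for 2 of 36 members and 426 of 2864 genes. Among genes with 6 to 9 introns it was listed for 3 of 11 members and 623 of 2965 genes, and among genes with 10 or more introns for 0 of 6 members and 1682 of 5488 genes. The members' share was thus above that of all genes with 1 or 2 and with 6 to 9 introns, and below it in the other classes.

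**Figure D2:**
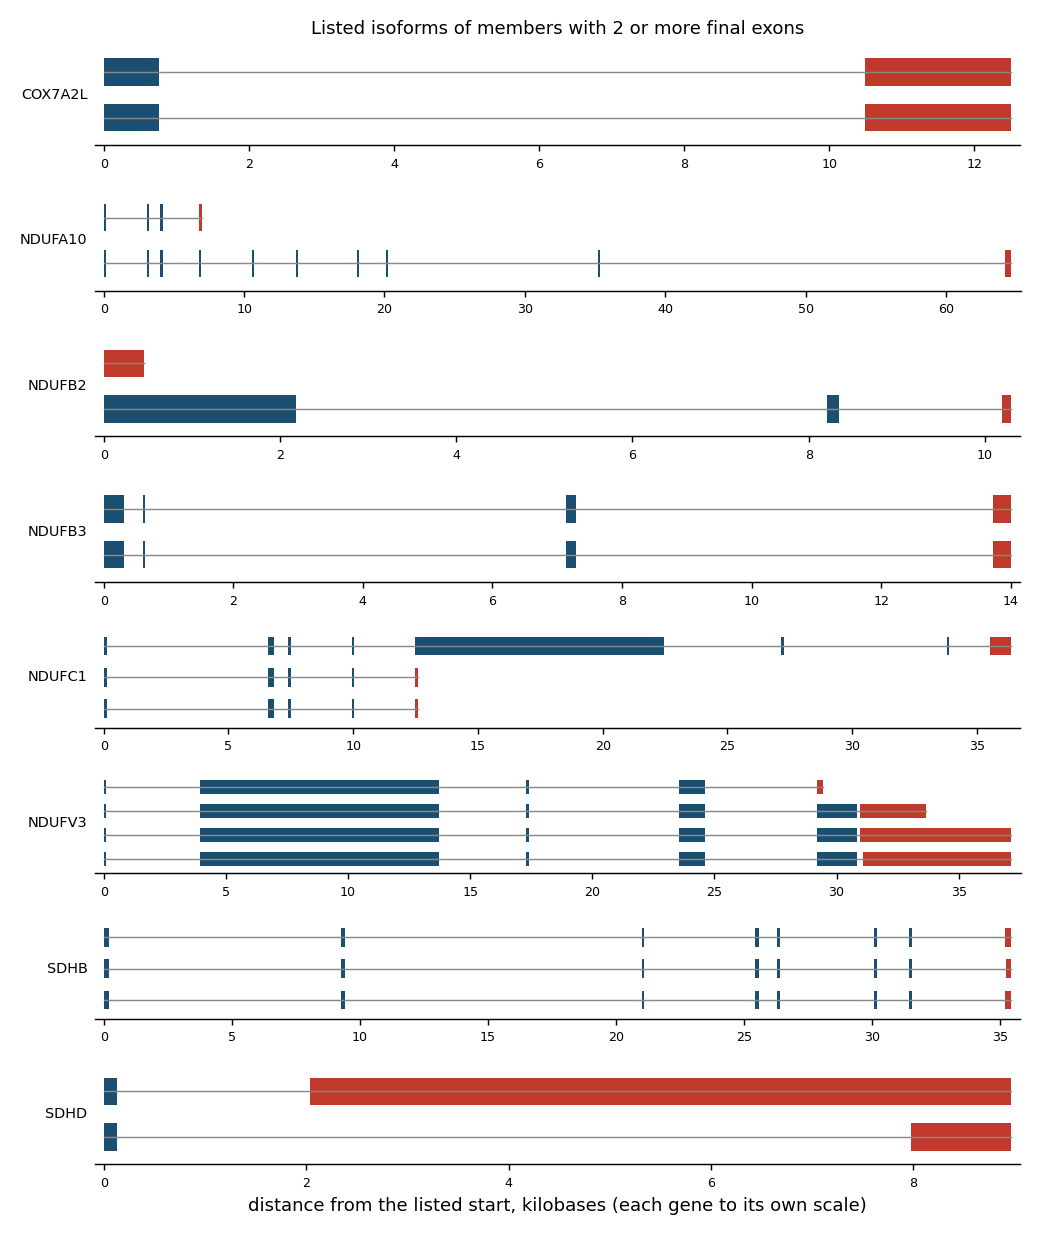
Listed isoforms of the 8 members with 2 or more final exons, drawn from the listed start, with final exons in red and other exons in dark blue. NDUFA10 has an early end after 3 introns, and in NDUFB3, SDHB and COX7A2L the alternative final exons start within 13 bases of each other.

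These 8 fell into early ends and shifted acceptors. NDUFA10 was listed with 9 introns and, as a second form, with a final exon of 232 bases after 3 introns, 57668 bases before the distal end. NDUFB2 was listed with 2 introns and as a single exon of 459 bases. In SDHD one form ended in an exon of 6928 bases that began where the third exon of the principal transcript begins and ran through to the end, and another ended in an exon of 990 bases. The form with the 990-base exon rests on overlapping rows, with the later row kept. With the earlier row kept, 7 members and 22% of all listed genes with introns had 2 or more final exons. NDUFV3 had 4 distinct forms, one ending in an exon of 242 bases after 4 introns. In NDUFC1 one form continued past the usual end through a further 3 introns to an end 23790 bases downstream. All 3 of those introns equal introns that GENCODE v29 assigns to MGARP, the next gene on that strand, at chr4:140188196-140189825, chr4:140189920-140196442 and chr4:140196547-140201230 in hg19. GENCODE gives 2 of the 3 to NDUFC1 transcripts as well.

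In SDHB, NDUFB3 and COX7A2L the forms differed by a few bases at the start of the last exon. The second acceptor lay 13 bases downstream in SDHB, 8 bases in NDUFB3 and 4 bases in COX7A2L. The first 60 bases of the last exons of SDHB and NDUFB3 are shown because they carry the shifted edge. They come from GENCODE v29 principal transcripts (GRCh38, chr1:17018899-17018958 on the minus strand and chr2:201085459-201085518 on the plus strand), are coding throughout, and have the bases between both acceptors in capitals.
SDHB: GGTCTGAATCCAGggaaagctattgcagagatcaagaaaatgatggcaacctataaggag
NDUFB3: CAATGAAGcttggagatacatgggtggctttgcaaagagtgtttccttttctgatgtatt
In both genes the capitals end in AG, the bases that close an intron, and neither 13 nor 8 is a multiple of 3. None of the 3 downstream acceptors is in a GENCODE transcript of its gene. Across the 68 members that could be matched to the reference, 18 acceptors and 4 donors lay within 100 bases of a principal site of the same kind without equalling it, and all 18 acceptors lay downstream of it. They included ATP5B (42 bases), ATP5D (30 bases) and NDUFB8 (43 bases), whose sites are in no GENCODE transcript of the gene, and ATP5G1 (27 bases), NDUFB9 (33 bases), ATP5A1 (8 bases), COX6C (5 bases) and NDUFV1 (4 bases), whose sites are in one. Of the 18, 5 closed a last intron. The count and direction of such shifts were not taken over all matched genes, so neither can be called particular to members. In NDUFA3 the first donor, the first acceptor and the next donor were each moved by 1 base, so the intron and exon between them kept their lengths. Whether these are different sites or a 1-base difference between the builds was not tested.

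The 3′ ends varied more often than final exons. At least 2 end positions were listed for 19 of 73 members (26%), and for 32% of all listed genes. Any difference in position was counted. The first and last ends were only 1 base apart in SDHA, 7 in NDUFB6, 8 in NDUFS7, 18 in ATP5SL and 30 in SDHB. NDUFA6 had 5 ends in 1 final exon, whose length was 198, 789, 2031, 2962 or 6874 bases. ATP5J had 3 ends over 9557 bases, ATP5O 2 ends over 3593 bases, and COX5A 2 ends over 484 bases. In NDUFA6, ATP5O, NDUFV3, ATP5I and ATP5J the farthest listed end lay 6084, 3592, 3500, 1654 and 1579 bases past the last end that GENCODE gives the gene. Ends over 500 bases past the reference gene were found in 6 of 68 members (8.82%) and 7.67% of all matched genes. Of the members' 94 distinct ends, 74.5% lay within 5 bases of a reference end, against 69.4% of 17999 ends over all matched genes. Listed starts lay within 5 bases of a reference start in 40 of 68 members (58.8%) and 55% of all matched genes.

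Set against the principal GENCODE transcript, an internal exon was missing more often from members than from listed genes at large. Matching was by the distances between splice sites, and 68 members and 11514 genes in all could be matched. In 15 members (22.1%) at least 1 principal exon lay inside a listed intron and had no row of its own, against 8.08% of all matched genes. Complex I had 10 of the 15. The remainder were SDHD of complex II, COX7C of complex IV, ATP5E and ATP5G2 of complex V, and COX7A2L. Ribosomal genes had fewer, 3 of 78 cytosolic and 5 of 58 mitochondrial.

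The gap moves with the number of exons. Among genes of 3 principal exons, the middle exon had no row in 10 of 13 members (76.9%) and in 53.2% of all 453 such genes. Such genes were 19.1% of the matched members and 3.93% of all matched genes. They were also few among the ribosomal genes, 1 of 78 cytosolic and 7 of 58 mitochondrial. Among genes of more than 3 principal exons, an exon was missing in 5 of 55 members (9.09%) and in 6.27% of 10996 genes. The 10 members of 3 exons were NDUFA2, NDUFA6, NDUFB1, NDUFB4, NDUFB7, NDUFB11, NDUFC2, NDUFS5, ATP5E and COX7C, which include all 8 accessory complex I genes named above with 1 intron. Whether the missing rows stand for exons skipped in these cells or for how the annotation was built was not tested.

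**Figure D3:**
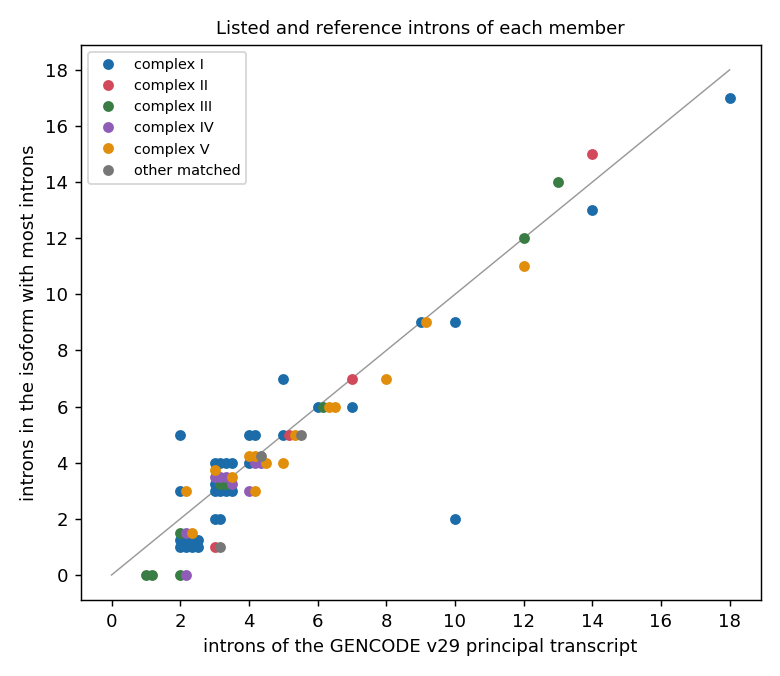
Introns in the listed isoform with most introns against introns of the GENCODE v29 principal transcript, 1 point per member, nudged up and right where points coincide. The line marks equality. The row of points at 2 reference introns and 1 listed intron holds most of the genes whose middle exon has no row, and NDUFA9 lies far below the line with 2 of 10 introns.

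The missing exons were 59 to 218 bases long, and 14 of the 16 carried coding sequence. Of the 11 that were wholly coding, 5 had a length divisible by 3, and over all matched genes 470 of 819 did. In 5 of the 16 the listed intron is itself an intron of another GENCODE transcript, namely in NDUFB4, NDUFC2, NDUFC1, ATP5G2 and 1 of the 2 gaps of SDHD. In the other 11 the splice sites are not joined in a GENCODE transcript of the gene. The longer gap of SDHD rests on a form whose rows overlap, with the later row kept. With the earlier row kept, 15 members still had a missing exon, and 15 exons were missing in place of 16.

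Among the 11 wholly coding missing exons, a pair carries cysteine codons that define their proteins. Partly coding exons, such as that of NDUFS5 with 216 of 218 bases coding, were not examined for such codons. NDUFS8 holds iron-sulphur clusters of the 4Fe-4S kind, and NDUFB7 belongs to the twin CX9C proteins, which fold in the intermembrane space with disulphide bonds. The exons are shown from GENCODE v29 (GRCh38, NDUFS8 at chr11:68036253-68036381 on the plus strand, NDUFB7 at chr19:14566765-14566933 on the minus strand) with in-frame cysteine codons in capitals.
NDUFS8: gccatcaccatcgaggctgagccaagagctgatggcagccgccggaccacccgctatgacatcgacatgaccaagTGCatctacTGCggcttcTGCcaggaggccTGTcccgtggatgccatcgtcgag
NDUFB7: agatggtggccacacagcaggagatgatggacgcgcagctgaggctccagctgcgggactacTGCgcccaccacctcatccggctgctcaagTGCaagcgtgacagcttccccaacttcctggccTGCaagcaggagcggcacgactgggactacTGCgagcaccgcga
Each exon had 4 such codons. In NDUFS8 they were separated by 2, 2 and 3 codons, and in NDUFB7 by 9, 10 and 9. The NDUFS8 exon of 129 bases lay inside a listed intron of 673 bases at chr11:67803256-67803928 in hg19, between principal introns of 464 and 80 bases. The NDUFB7 exon of 169 bases lay inside a listed intron of 5623 bases at chr19:14677078-14682700. The rows show positions only, so neither exon can be said to be absent from the RNA of these cells.

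For the chain as a whole, 242 of 330 principal introns of the matched members were listed (73.3%), against 81.1% of 137081 over all matched genes. Every principal intron was listed for 20 of 68 members (29.4%) and for 24% of all matched genes. By complex this was 5 of 33 in complex I, 2 of 4 in complex II, 2 of 5 in complex III, 4 of 8 in complex IV and 6 of 15 in complex V. Principal introns ended past the listed 3′ end, wherever they began, in 10 members (14.7%) and 23.1% of all matched genes. NDUFA9, an accessory subunit near the quinone site, had the most of them. It had 2 of 10 principal introns listed, a last exon of 17 bases and 8 introns that ended beyond its listed end. A principal intron lay inside a listed exon in 3 members (4.41%) and 13.1% of all matched genes. These were NDUFS7, where a 295-base exon joined exons of 180 and 47 bases across an intron of 68 bases, ATP5C1, where a 320-base exon joined exons of 144 and 65 bases across an intron of 111 bases, and SDHD with the 6928-base final exon described above. No row marks an intron as detained, and no other isoform of NDUFS7 or ATP5C1 was listed with that intron spliced.

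**Figure D4:**
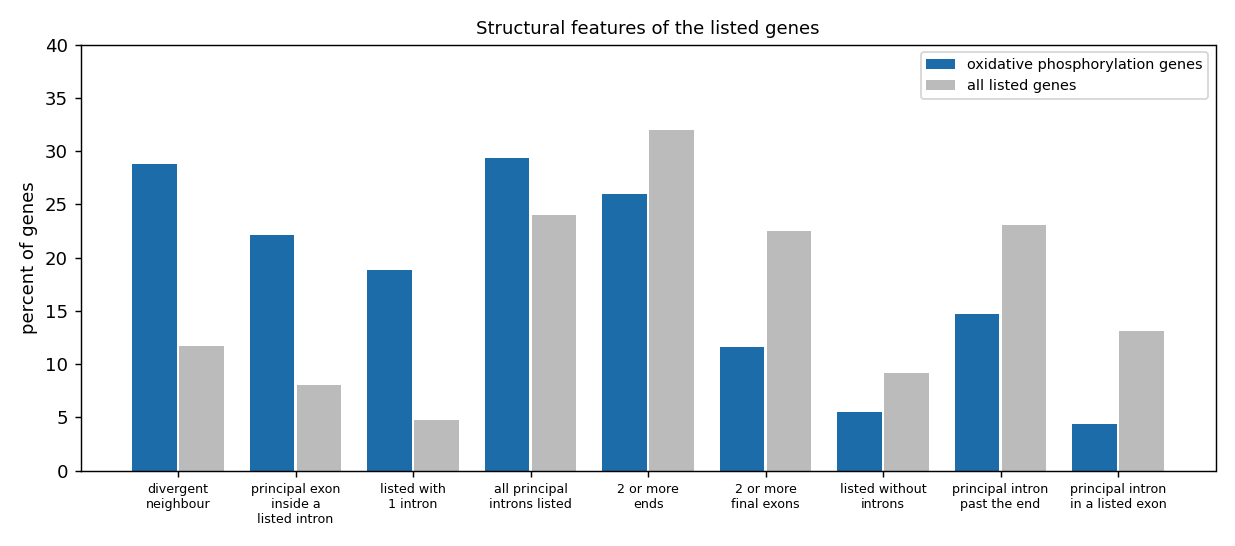
Percent of genes with each structural feature, for the oxidative phosphorylation genes (blue, left of each pair) and all listed genes (grey). Members have larger shares for divergent neighbours (28.8% against 11.7%) and missing principal exons (22.1% against 8.08%), and a smaller share for 2 or more final exons (11.6% against 22.5%).

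ATP5C1, the gamma subunit that turns inside the catalytic head of ATP synthase, has a small exon whose use is known to depend on the tissue, being left out in heart and skeletal muscle. The listed chain ended on that exon, of 37 bases, at chr10:7848937-7848973 in hg19. It is exon 9 of 10 in a GENCODE coding transcript and is absent from the principal transcript used here. It is shown in capitals with 20 bases of each neighbouring exon, as joined in that transcript (the exon is at chr10:7806974-7807010 on the plus strand of GRCh38).
ATP5C1: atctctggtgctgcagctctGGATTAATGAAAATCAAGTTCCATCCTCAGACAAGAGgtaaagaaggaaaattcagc
The exon that follows it in that transcript had no row, and 1 principal intron began inside the listed chain and ended past it.

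Internal exons that the principal transcript lacks were listed in 17 of the 68 matched members. The share over all matched genes was not computed, so 17 cannot be called many or few. Those of NDUFC1, of 104 and 94 bases, lie between the introns that it shares with MGARP. NDUFV3, which is known in a short and a long form that differ by an internal exon, had an extra exon of 1095 bases. SDHA had one of 98 bases, NDUFS4 one of 172 bases, NDUFA5 one of 209 bases and UQCRH one of 148 bases. The 2127-base exon of UQCRC2 and the 1786-base exon of ATP5L were the longest. Both of these, and a 9776-base internal exon of NDUFV3, hold a whole intron of a GENCODE transcript other than the principal one. They equal no GENCODE exon of their gene.

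Starts that face another gene were common. The start of 21 of 73 members (28.8%) had the start of another listed gene upstream of it on the other strand, fewer than 1000 bases away, and 11.7% of all listed genes had one. Mitochondrial ribosomal protein genes had 22 of 69, and cytosolic ribosomal protein genes 13 of 81. Complex I held 13 of its 33 members, complex II 2 of 4, complex III 2 of 9, complex IV 1 of 9 and complex V 2 of 15, and 1 of the 21 was among the 3 matched genes that encode no subunit. The starts were close, with a median of 75 bases between them in members and 154 bases over all such genes. Within 200 bases there were 18 members (24.7%) and 7.08% of all listed genes.

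**Figure D5:**
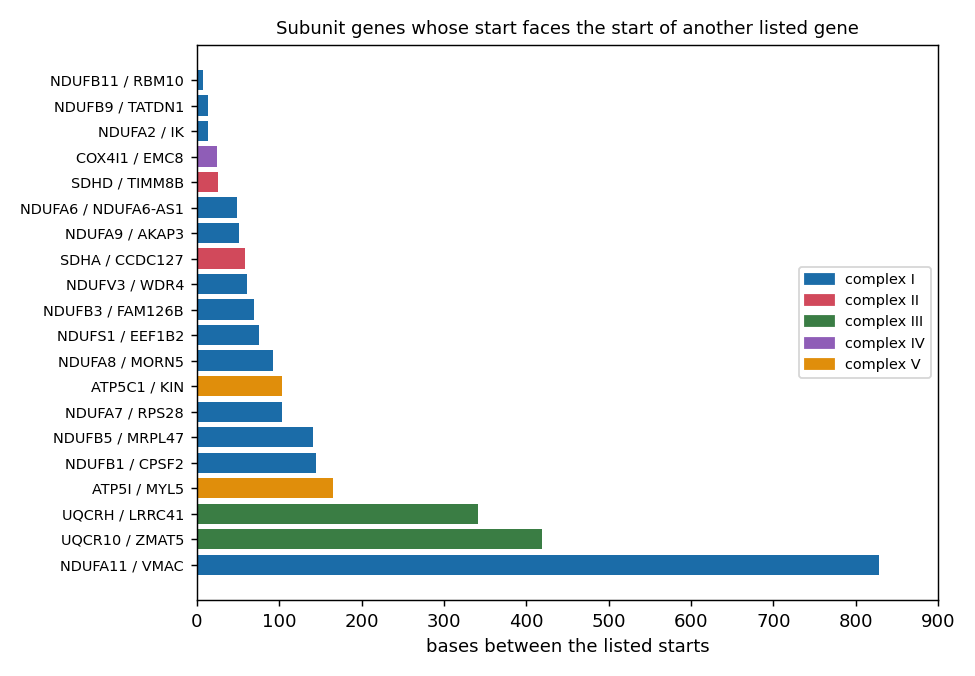
Bases between the listed start of each of 20 subunit genes and the start of the listed gene facing away from it on the other strand, coloured by complex. The 17 upper bars are under 200 bases, and NDUFB11 with RBM10 is the closest pair at 8 bases.

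The closest pairs were NDUFB11 with the splicing regulator RBM10 (8 bases between the starts), NDUFA2 with IK and NDUFB9 with TATDN1 (14 bases each), COX4I1 with EMC8 (25 bases) and SDHD with TIMM8B (26 bases). TIMM8B is a chaperone of mitochondrial protein import, and MRPL47, 141 bases from NDUFB5, is a mitochondrial ribosomal protein. EEF1B2, 75 bases from NDUFS1, is a translation elongation factor, and RPS28, 104 bases from NDUFA7, is a ribosomal protein. CPSF2, 145 bases from NDUFB1, acts in polyadenylation. The partner of NDUFA6 is its antisense gene NDUFA6-AS1, 49 bases away. ATP5F1 is outside the 21 because its start overlaps that of WDR77 by 87 bases. WDR77 encodes MEP50, the partner that PRMT5 needs for full activity. The other pairs were NDUFA9 with AKAP3, SDHA with CCDC127, NDUFV3 with WDR4, NDUFB3 with FAM126B, NDUFA8 with MORN5, ATP5C1 with KIN, ATP5I with MYL5, UQCRH with LRRC41, UQCR10 with ZMAT5 and NDUFA11 with VMAC. Sharing of reads between the strands could not be examined, since the labels do not say whether the libraries keep strand.

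Promoter windows of 59 members were found in RefSeq (GRCh38.p14, 250 bases before to 50 after the start). NRF1 is a factor long known from genes of the respiratory chain, ETS factors include GABPA (NRF2), and YY1 binds near many mitochondrial genes. The letters GCGCATGCG, the core of the palindromic NRF1 element, stood on either strand in 9 of 59 member windows (15.3%) and in 2.76% of 15843 windows of protein-coding genes. The YY1 letters AAGATGGC stood in 11 member windows (18.6%) and 3.91% of all, and the ETS letters CCGGAAG in 15 (25.4%) and 14.2% of all. The Sp1 letters GGGCGG stood in 33 (55.9%) and 58.5% of all, CCAAT in 19 (32.2%) and 36.4% of all, and TATAAA in 6 (10.2%) and 9.63% of all. The letters TCAAGGTCA, bound by oestrogen-related receptors, stood in 1 (1.69%) and 0.24% of all. None of these letters contains another. Among the cytosolic ribosomal windows, NRF1 letters stood in 1 of 64, and among the mitochondrial ribosomal windows in 3 of 61, where ETS and YY1 letters stood in 25 and 17. Members with a divergent neighbour held the NRF1 letters in 4 of 18 windows, and the other members in 5 of 41. The windows follow RefSeq starts, which need not be the listed starts that define the divergent pairs.

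Of the divergent members, SDHD and ATP5I hold both NRF1 and ETS letters, and their windows are shown for that reason, cut 30 bases after the RefSeq start, with the NRF1 and ETS letters of either strand in capitals. SDHD lies at chr11:112086623-112086902 on the plus strand and ATP5I, named ATP5ME in RefSeq, at chr4:674247-674526 on the minus strand (GRCh38.p14).
SDHD: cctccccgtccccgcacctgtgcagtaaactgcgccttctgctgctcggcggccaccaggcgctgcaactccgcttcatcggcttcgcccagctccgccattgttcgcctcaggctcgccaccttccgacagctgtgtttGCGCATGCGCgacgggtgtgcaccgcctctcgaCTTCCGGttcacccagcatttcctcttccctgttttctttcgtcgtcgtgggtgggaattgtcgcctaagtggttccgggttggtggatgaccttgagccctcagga
ATP5I: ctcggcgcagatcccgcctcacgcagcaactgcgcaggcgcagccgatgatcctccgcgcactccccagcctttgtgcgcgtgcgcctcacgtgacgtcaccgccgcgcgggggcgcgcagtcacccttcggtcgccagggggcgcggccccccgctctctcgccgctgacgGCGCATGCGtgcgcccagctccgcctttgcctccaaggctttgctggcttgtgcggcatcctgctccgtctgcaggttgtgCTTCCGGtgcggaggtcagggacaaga
In SDHD the match is the full palindrome, read alike on both strands. A match is a description of letters, and binding was not measured.

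The names around the complexes gave a different picture from the subunits. Of 45 assembly factor symbols on the fixed list, 37 were listed, with a median of 6 introns and a median span of 18413 bases in the 33 that had introns. A choice of final exons was listed for 13 of those 33, against 8 of 69 subunit-pattern genes and 22.5% of all genes. A principal exon was missing in 2 of the 33 matched. Subunits and carriers outside the naming pattern were listed as well. CYCS, the cytochrome c gene, had 1 intron and 1 end. NDUFA4L2, which is known to be raised by hypoxia, had 4 introns and 5 ends.

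For a pair of the complex I names that were not matched, the intron lengths appeared under other listed names. All 7 principal intron lengths of NDUFV2, a 2Fe-2S subunit, were found among the 7 introns listed as RP11-21J18.1 on the same strand of chromosome 18, at chr18:9102629-9134339 in hg19. Of the 4 principal introns of NDUFA13, 3 had their lengths among the 4 introns listed as YJEFN3, at chr19:19627020-19639007. These genes were left out of all counts, since the naming pattern does not take them.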

How the data were processed

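Per the labels, 6 libraries of U-87 MG RNA were made after poly(A) selection. The builds hg19 and GRCh37 appear in the submitters' processing notes, with RSEM, DESeq 1.10.1, Bowtie 1.0.1, STAR 2.4.1d and bedtools 2.20.1 and no role for any of them. The deposited annotation holds exon start and end positions (382567 rows), with no counts. A new isoform (31659 in all) began wherever the rows changed parent or started again at the 5′ end, 76 rows with end before start were dropped, and of overlapping consecutive exons the later was kept. Members and lists were chosen with earlier results of these data known, so counts and medians are given beside those of all listed genes, and no test was run. Gene names were matched to GENCODE v29 (57 members by name, 16 by an older symbol). The principal transcript was the APPRIS-best coding one, and a gene was matched when at least 2 splice sites and 50% of its listed sites agreed in spacing. Positions were never converted between builds. Members with most and fewest introns and longest and shortest span per complex, the 3 longest and 3 shortest introns, and members with each listed feature were named by rule. Further genes were named after their values were seen, and a few results are not reported here. Alternatives are given in the closing section. The matching was tested on simulated data. Python 3.11.15 was used.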

Additional observations from a re-analysis of the deposited data

How the results depend on the processing

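The count of members with 2 or more final exons depended on what counts as distinct. It was 4 when final exons had to be free of overlap, against 8 by the start of the final exon. By the stricter reading 16.7% of all genes with introns had such a choice, against 22.5%. Keeping the earlier of overlapping exons, leaving out ATP5S, ATP5SL and COX7A2L, or counting introns over all isoforms left the other counts within 1.5 times of their values, and the median intron number stayed at 4. The median intron length ranged from 1280 bases without first introns to 1982 bases as a median of gene medians. The count of divergent members was 20 within 500 bases and 22 with starts that may overlap by up to 300 bases. The count of members with a missing principal exon ran from 13 to 15. The overlap reading and all alternatives for missing exons were chosen after seeing the data. No paired analysis was possible because the annotation has 0 columns per library. Depth is unknown, replicate error cannot be given, and a gene or exon without a row cannot be told from one that was not expressed.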
